A study of Homo sapiens with 6 samples.

Results

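The 5 cytokine genes were followed across 6 RNA sequencing libraries of K1, a human cell line established from a papillary thyroid carcinoma. They are IL1A and IL1B, the interleukin-1 alpha and beta genes, IL6, IL32, and CSF3, which encodes granulocyte colony-stimulating factor (G-CSF). The genes were taken by name from the authors' deposited table, and the 5 are among its 986 genes. A total of 3 libraries (control replicates 1 to 3) came from K1 cells given a control transfection, and 3 (miR-31 KO replicates 1 to 3) from K1 cells transfected with a guide RNA against the microRNA miR-31. Cells of both groups were grown in DMEM with 10% FBS, and the labels do not say whether the knockout cells were a clone or a pool, nor whether each library had its own culture, so the p-values may reflect technical spread only. The authors' table is limited to genes that passed an adjusted p of 0.05 and a log2 fold change of 1 in either direction, so presence in it already means a called difference and a gene that is not in it cannot be called unchanged. MIR31 and its host gene are not among the table's genes, which leaves the knockout labels unchecked here, and an effect of losing miR-31 cannot be told apart from any other difference between control and knockout cells.

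Interleukin-1 alpha and beta bind the same receptor and switch on NF-kappa-B and stress kinases, which in turn raise many inflammatory transcripts, interleukin-1 itself, interleukin-6 and G-CSF among them. Interleukin-6 acts through the shared receptor chain gp130 and STAT3, and G-CSF drives the production and release of neutrophils. Interleukin-32 is a cytokine of human cells that is induced by inflammatory signals and has no sequence relation to the interleukin-1 or interleukin-6 families.

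The sequence of miR-31-5p, the main mature strand of the targeted microRNA, is shown first because miR-31 was the target of the guide RNA, with its seed (bases 2 to 8) in capitals. It lies at chr9:21512158-21512178 on the minus strand (RefSeq, GRCh38.p14).
miR-31-5p: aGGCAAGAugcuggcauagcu

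No match to this seed, counted as TCTTGCC, TCTTGCCA or CTTGCCA, was found in the longest annotated 3' UTR of IL1A, IL1B, IL6, IL32 or CSF3 (GENCODE release 29), which were 1152, 610, 429, 464 and 854 bases long. Of all 19108 annotated protein coding genes, 19.2% had a match. That says only that these letters are not in these stretches.

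Those 3' UTRs differed in another sequence feature, the AU-rich pentamer ATTTA, which in cytokine transcripts is known as a binding motif of proteins that shorten mRNA life. It occurred 5 times in IL1A, 6 times in IL1B, 6 times in IL6 and 7 times in CSF3, and it did not occur in IL32. Per kilobase of 3' UTR this was 4.34 in IL1A, 9.84 in IL1B, 14.0 in IL6 and 8.20 in CSF3, against a median of 1.49 over all annotated protein coding genes and 1.40 over the genes of the table. Of all annotated protein coding genes, 12.3% reached the density of IL1A, 2.13% that of CSF3, 1.29% that of IL1B and 0.529% that of IL6. IL32 was thus the 1 gene of the 5 without the motif, and it is also the gene whose values differed least between libraries of a group; a relation between these was not tested. Stretches of 30 bases that hold most pentamers in each 3' UTR are shown with the pentamers in capitals, at chr2:112774424-112774453 (IL1A, minus strand), chr2:112829995-112830024 (IL1B, minus strand), chr7:22731704-22731733 (IL6, plus strand) and chr17:40016979-40017008 (CSF3, plus strand) on GRCh38.
IL1A: tATTTAtatatgtATTTAtaaatatATTTA
IL1B: cgcttccctATTTATTTATTTAtttgtttg
IL6: tatttttaATTTAttaatATTTAaatatgt
CSF3: atgtATTTAtctctATTTAatATTTAtgtc

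Promoter windows were found for 4 of the 5 genes and not for CSF3. Of the transcripts that moved together between libraries, IL1A, IL1B and IL6 thus have a window. IL32 has one but did not move with them. RefSeq windows from 250 bases before to 50 bases after a start site (GRCh38.p14) were read for IL1A, IL1B, IL6 and IL32, and capitals mark matches on either strand to a kappa-B consensus, to an AP-1 motif (TGANTCA) and to a C/EBP motif (TTNNGNAA). The windows lie at chr2:112784444-112784743 (IL1A, minus strand), chr2:112836730-112837029 (IL1B, minus strand), chr7:22726950-22727249 (IL6, plus strand) and chr16:3065153-3065452 (IL32, plus strand).
IL1A: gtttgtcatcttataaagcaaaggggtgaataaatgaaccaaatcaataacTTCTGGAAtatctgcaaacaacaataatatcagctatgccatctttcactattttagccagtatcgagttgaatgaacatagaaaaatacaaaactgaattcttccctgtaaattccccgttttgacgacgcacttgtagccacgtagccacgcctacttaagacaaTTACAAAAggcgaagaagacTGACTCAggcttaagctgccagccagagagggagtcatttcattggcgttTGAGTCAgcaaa
IL1B: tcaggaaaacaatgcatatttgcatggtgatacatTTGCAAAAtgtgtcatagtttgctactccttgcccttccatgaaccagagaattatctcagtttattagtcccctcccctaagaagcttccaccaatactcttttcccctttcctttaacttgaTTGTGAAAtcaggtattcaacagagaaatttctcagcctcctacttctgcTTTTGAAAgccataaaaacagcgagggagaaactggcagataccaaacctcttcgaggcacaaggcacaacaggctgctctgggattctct
IL6: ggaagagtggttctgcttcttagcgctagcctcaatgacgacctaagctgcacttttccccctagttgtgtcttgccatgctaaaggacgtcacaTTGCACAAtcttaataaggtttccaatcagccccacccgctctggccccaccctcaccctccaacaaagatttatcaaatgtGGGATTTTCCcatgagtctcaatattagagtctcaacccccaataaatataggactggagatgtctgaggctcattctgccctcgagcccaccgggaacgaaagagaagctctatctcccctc
IL32: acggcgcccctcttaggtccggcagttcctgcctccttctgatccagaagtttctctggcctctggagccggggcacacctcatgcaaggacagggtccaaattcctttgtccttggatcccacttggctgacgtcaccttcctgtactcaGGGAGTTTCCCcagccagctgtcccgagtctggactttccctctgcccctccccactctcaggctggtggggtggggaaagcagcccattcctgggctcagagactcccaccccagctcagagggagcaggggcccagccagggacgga

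The IL6 window held a kappa-B match, GGGATTTTCC, that begins 73 bases before the start site, and a C/EBP match that begins 155 bases before it. The IL32 window held 2 overlapping kappa-B matches on opposite strands, GGGAGTTTCC and GGAGTTTCCC, the first beginning 99 bases before the start site. The IL1A window had no kappa-B match and 2 AP-1 matches, the first beginning 12 bases before the start site and the second lying after it, and it had 2 C/EBP matches. A second IL1A window, which starts at a site further downstream and overlaps the first, held the same AP-1 matches. The IL1B window had 3 C/EBP matches and neither of the other motifs. A second IL32 window, at chr16:3065534-3065833, had 1 C/EBP match and no kappa-B match. The C/EBP motif thus had a match in at least 1 window of each of the 4 genes with a window. In IL32 the match was in the second window only. As IL1A and IL32 had 2 windows each, this count by gene is not comparable with the shares of windows that follow. The kappa-B consensus had a match in IL6 and IL32 but not in IL1A or IL1B. Of all 35093 windows of this length, 11.3% held the kappa-B consensus, 7.71% the AP-1 motif and 36.8% the C/EBP motif. For windows of the table's genes the shares were 12.5%, 8.30% and 31.4%. A match is a description of the letters and does not show binding.

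On GRCh38, IL1A (ENSG00000115008.5) spans chr2:112773915-112784590 and IL1B (ENSG00000125538.11) spans chr2:112829751-112836903, both on the minus strand with 45160 bp between them. IL36G, another interleukin-1 family gene, lies 136299 bp beyond IL1B on the plus strand and was also in the table. Apart from each other, IL36G was the 1 further gene in the table among the 18 protein coding genes within 500 kb of IL1A and of IL1B. IL6 (ENSG00000136244.11) spans chr7:22725884-22732002, IL32 (ENSG00000008517.16) chr16:3065297-3082192 and CSF3 (ENSG00000108342.12) chr17:40015361-40017813, all on the plus strand. Within 500 kb of IL6 1 of 6 protein coding neighbours was in the table, near CSF3 2 of 30, and near IL32 0 of 44. In the annotation IL6 overlaps STEAP1B and the antisense gene AC073072.1, and IL32 overlaps AC108134.3, all on the opposite strand, and IL32 also overlaps the small RNA gene RNU1-125P on its own strand. These are overlaps of whole gene spans, and shared exons were not looked for. Whether reads were counted by strand is not given in the sources used here. Whether reads of these genes entered the counts of IL6 and IL32 was not tested.

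All 5 transcripts were higher in miR-31 KO. Normalized read counts, the authors' scaled counts per gene, are given for replicates 1, 2 and 3 in that order, with means ± SD (n = 3). Of the table's 986 genes, 60.1% were higher, and the same 593 genes are 3.53% of the 16806 genes the authors tested. Since each of the 5 was taken from a table of called genes, the count of 5 adds nothing to that selection. The sums of the table's genes were between 545354 and 943360 per library, and total depth is unknown, so no counting interval is given.

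CSF3, the neutrophil growth factor gene, was the most abundant of the 5. Control libraries had 38885, 22188 and 19273 normalized counts (26782 ± 10582) and miR-31 KO libraries had 99953, 95330 and 43845 (79709 ± 31145). It was the gene with the highest normalized count of the whole table in each miR-31 KO library and ranked 2 in each control library. Per kilobase of transcript it ranked 1 in all 6 libraries among the 963 table genes with an annotated length. The lowest miR-31 KO value was 1.13 times the highest control value, so the groups were separated by a narrow gap. In the authors' deposited table its log2 fold change was 1.57, with an adjusted p of 4.64e-07.

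IL1B encodes a precursor that caspases cut into the secreted cytokine. Control libraries had 24935, 9830 and 8285 normalized counts (14350 ± 9200) and miR-31 KO libraries had 48730, 45976 and 14155 (36287 ± 19216). Here the groups overlapped, since control replicate 1 was above miR-31 KO replicate 3, which had 0.568 times its value. Highest and lowest libraries differed 3.01-fold in control and 3.44-fold in miR-31 KO, more than the 2.53-fold ratio of the group means. The authors' deposited log2 fold change was 1.34 with an adjusted p of 0.00774, the smallest fold change and the largest adjusted p of the 5.

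IL1A encodes the form of interleukin-1 that is active without cleavage and is released when cells are damaged. Control libraries had 2229, 1370 and 1263 normalized counts (1620 ± 530) and miR-31 KO libraries had 4926, 5010 and 3250 (4396 ± 993). The groups did not overlap, with the lowest miR-31 KO value 1.46 times the highest control value. The authors' deposited log2 fold change was 1.44 with an adjusted p of 4.94e-11.

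IL6 had 5279, 2962 and 3028 normalized counts in control (3756 ± 1319) and 14653, 13731 and 7667 in miR-31 KO (12017 ± 3795). Control replicate 1 was the highest control and miR-31 KO replicate 3 the lowest knockout library, as for IL1A, IL1B and CSF3, and the groups did not overlap. The authors' deposited log2 fold change was 1.68 with an adjusted p of 8.38e-11.

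IL32 was the least abundant of the 5 and the steadiest within groups. Control libraries had 219, 269 and 270 normalized counts (253 ± 29.3) and miR-31 KO libraries had 953, 1007 and 850 (937 ± 80.1). The lowest miR-31 KO value was 3.14 times the highest control value, the widest gap of the 5. Its coefficient of variation was 11.6% in control and 8.55% in miR-31 KO, against 32.7% to 64.1% in control and 22.6% to 53.0% in miR-31 KO for the other 4. The authors' deposited log2 fold change was 1.89 with an adjusted p of 2.38e-24.

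**Figure D1:**
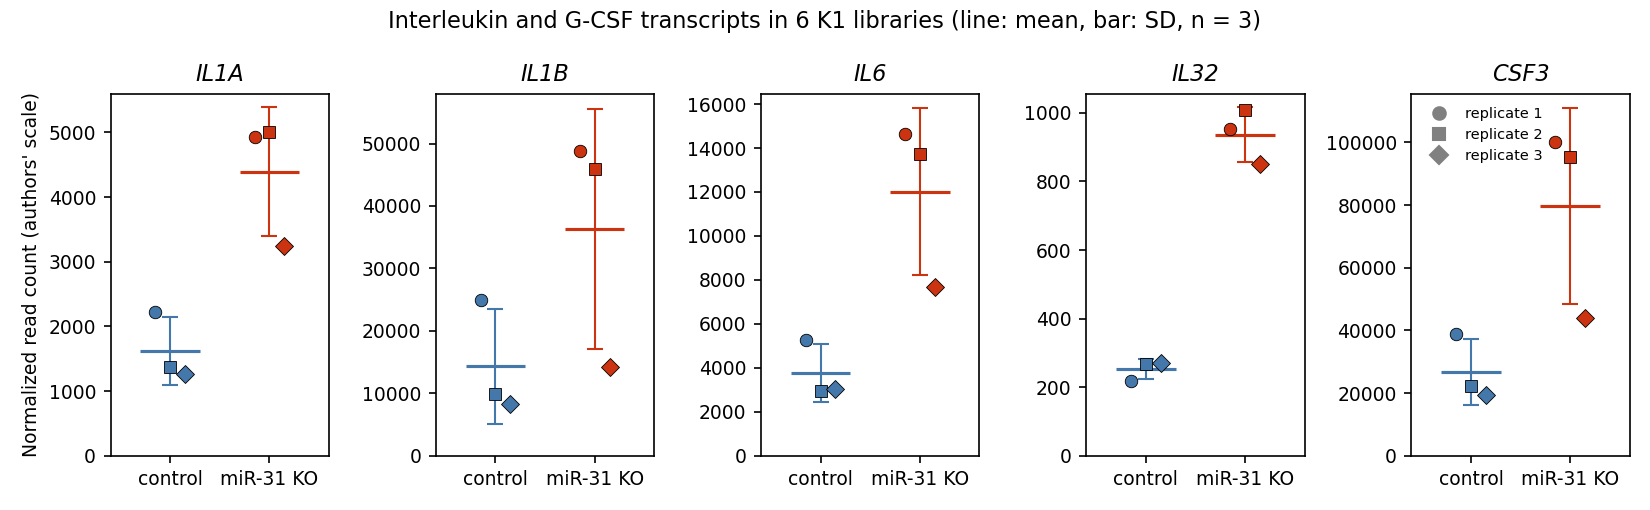
Normalized read counts (vertical axes, authors' scale, each from 0) of the 5 genes in the 3 control and 3 miR-31 KO libraries, with 1 point per library, lines at group means and bars of 1 SD. The groups overlap for IL1B, where control replicate 1 had 24935 and miR-31 KO replicate 3 had 14155, and lie far apart for IL32.

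Groups did not overlap for 4 of the 5 genes. The miR-31 KO libraries all lay above the control libraries for 540 of the table's 986 genes (54.8%). These 540 are all among its 593 higher genes, which are the like set for the 5. Per kilobase of transcript (the longest principal transcript in GENCODE), mean levels in control were 16009 ± 6325 for CSF3, 8798 ± 5640 for IL1B, 2460 ± 864 for IL6, 763 ± 249 for IL1A and 199 ± 23.0 for IL32 (normalized counts per kilobase, SD, n = 3). In miR-31 KO they were 47645 ± 18617, 22248 ± 11782, 7870 ± 2485, 2069 ± 467 and 736 ± 62.9. The order of the 5 levels per kilobase was the same within each of the 6 libraries, though the means ± SD of the neighbours CSF3 and IL1B overlapped in both groups and those of IL1B and IL6 overlapped in control. IL1B per kilobase was between 5079 and 15288 in control and between 8679 and 29877 in miR-31 KO, and CSF3 was between 11520 and 23243 in control.

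The spread within groups followed 1 pattern in 4 of the genes. For IL1A, IL1B, IL6 and CSF3, control replicate 1 was above both other controls and the third miR-31 KO library was lower than the other two. That pattern held for 226 of the table's 986 genes (22.9%) and for 181 of the 593 higher ones (30.5%). Control replicate 1 had 1.69 times the mean of control replicates 2 and 3 for IL1A, 1.76 times for IL6, 1.88 times for CSF3 and 2.75 times for IL1B. Likewise, the mean of miR-31 KO replicates 1 and 2 was 1.53 times miR-31 KO replicate 3 for IL1A, 1.85 times for IL6, 2.23 times for CSF3 and 3.35 times for IL1B. The 4 genes thus had the same order of spread in both groups, IL1B widest and IL1A narrowest. For IL32, control replicate 1 was below both other controls, at 0.812 times their mean, and miR-31 KO replicate 3 was the lowest knockout library by a smaller margin, with a ratio of 1.15.

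**Figure D2:**
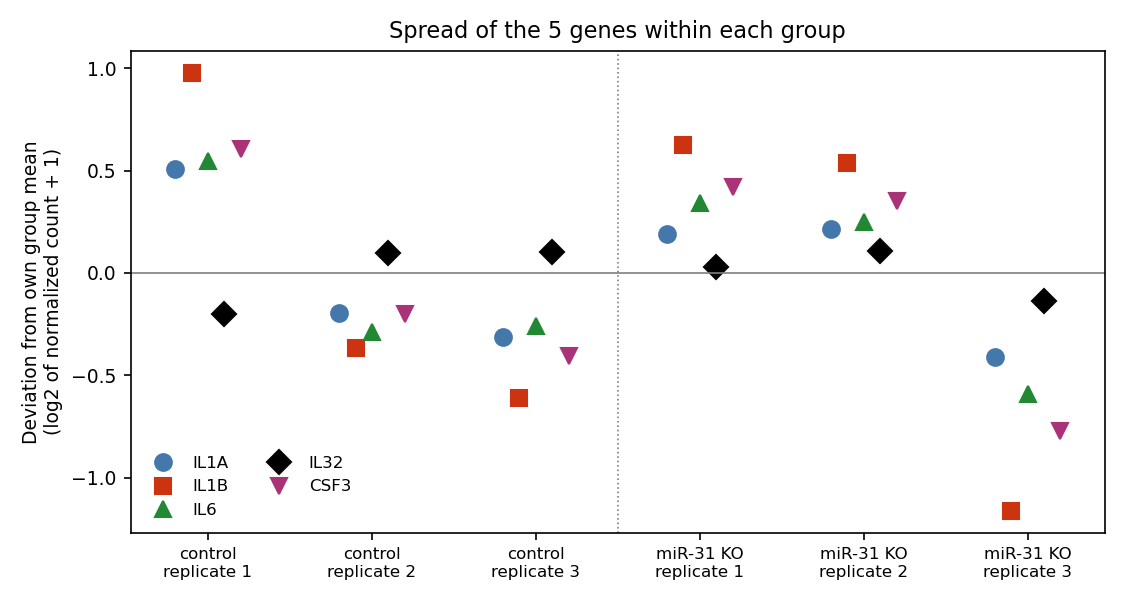
Deviation of each library from its own group mean (vertical axis, log2 of the normalized count + 1) for the 5 genes in the 6 libraries (horizontal axis), with 1 point per gene and library. IL1A, IL1B, IL6 and CSF3 lie above 0 in control replicate 1 and below 0 in miR-31 KO replicate 3, with IL1B at 0.98 and -1.16, while IL32 lies at -0.20 and -0.14.

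Over the 6 libraries the deviations of log2(normalized count + 1) from the group means had Pearson r of 0.973 to 0.999 for the 6 pairs among IL1A, IL1B, IL6 and CSF3, the highest being IL1B with CSF3. With IL32 the 4 pairs had r of -0.28 to -0.08. Each r is a description over 6 points that share their libraries, and in each of the 4 genes control replicate 1 and miR-31 KO replicate 3 deviated most in their groups. Among 516 other table genes with a mean of at least 50, the gene most like IL1B, and also most like CSF3, was SOD2, the mitochondrial superoxide dismutase gene. SOD2 had 21795, 9310 and 8492 normalized counts in control and 42826, 43154 and 14601 in miR-31 KO. The integrin gene ITGB3 was most like IL1A, and CTSS, which encodes the protease cathepsin S, and the chemokine gene CXCL8 were most like IL6. CXCL3, a neutrophil chemokine gene, was most like IL32, with r of 0.969, and had 648, 863 and 813 normalized counts in control and 2638, 2658 and 2207 in miR-31 KO. IFITM1 and DSCAML1 were nearly as like IL32, with r of 0.967 and 0.965. Both were lower in miR-31 KO, with authors' log2 fold changes of -2.77 and -1.72.

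Control replicate 1 and miR-31 KO replicate 3 were placed on a log2 scale from 0 at the other libraries of the own group to 1 at the close pair of the other group (control replicates 2 and 3, miR-31 KO replicates 1 and 2). Control replicate 1 lay at 0.61 for IL1B, 0.41 for CSF3, 0.40 for IL1A and 0.36 for IL6, and at -0.16 for IL32, against a median of 0.04 over the 593 higher genes. For miR-31 KO replicate 3 the values were 0.73, 0.52, 0.32 and 0.40, and 0.11 for IL32, against a median of 0.08. In IL1B each of these libraries was thus nearer to the other group than to its own, and in CSF3 so was miR-31 KO replicate 3.

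**Figure D3:**
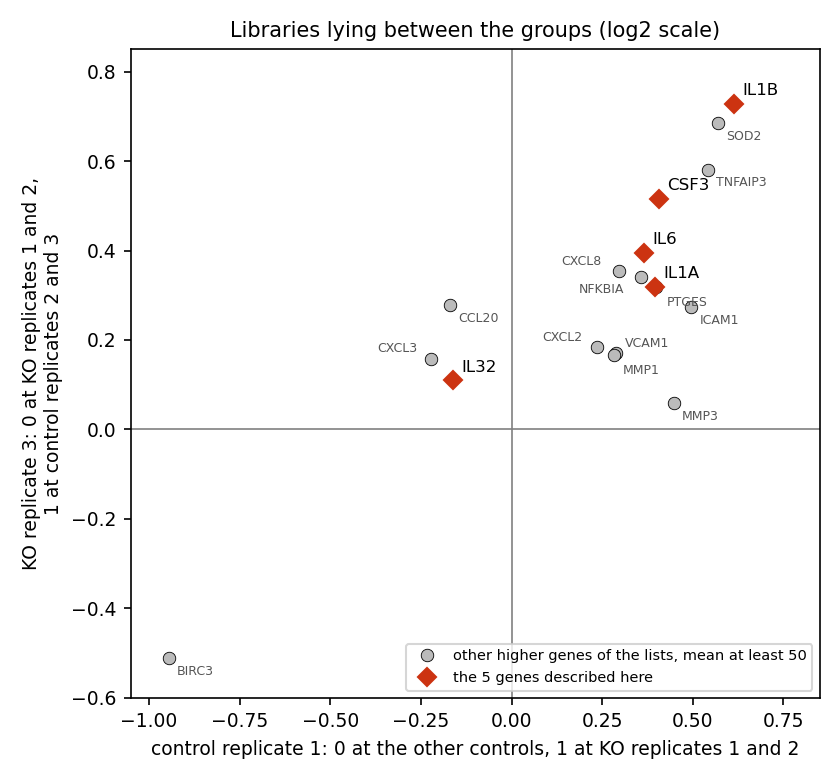
Position of control replicate 1 (horizontal axis) and miR-31 KO replicate 3 (vertical axis) between the groups, as a fraction of the log2 distance, for the 5 genes and for other higher genes of the cytokine lists with a mean of at least 50. Of the 5 genes IL1B lies nearest to the other group, at 0.61 and 0.73, BIRC3 lies on the opposite side at -0.95 and -0.51, and IL32 lies at -0.16 and 0.11 beside CXCL3.

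The authors' test covered all genes, and a limma refit of the table's 986 genes on log2(normalized count + 1) gave the size of the error. Fold changes from the refit were 1.89 ± 0.18 (SE) for IL32, 1.68 ± 0.33 for IL6, 1.46 ± 0.28 for IL1A, 1.55 ± 0.40 for CSF3 and 1.32 ± 0.57 for IL1B on the log2 scale. It called IL32, IL1A and IL6 (limma, Benjamini-Hochberg adjusted p of 0.00181, 0.0346 and 0.0390) and did not call CSF3 or IL1B (adjusted p of 0.130 and 0.852). The refit called 278 of the table's 986 genes as higher (28.2%). Of the 986 genes, 593 were higher in the authors' test. The 95% interval for IL1B went from 0.004 to 2.64. With control replicates 2 and 3 against miR-31 KO replicates 1 and 2, a choice made after the values were seen, the refit gave 2.39 for IL1B, 2.24 for IL6, 2.24 for CSF3, 1.92 for IL1A and 1.86 for IL32, and all 5 were called (limma, largest adjusted p 0.000457). Those 4 libraries were chosen as the close pairs, so the smaller spread follows from the choice. Left out were control replicate 1 and miR-31 KO replicate 3, the highest control and lowest knockout library of IL1A, IL1B, IL6 and CSF3. The larger folds and smaller adjusted p-values of these genes thus follow from the choice as well. From 6 to 4 libraries the value of IL32 fell by 0.03, and the others were higher by 0.46 to 1.07.

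**Figure D4:**
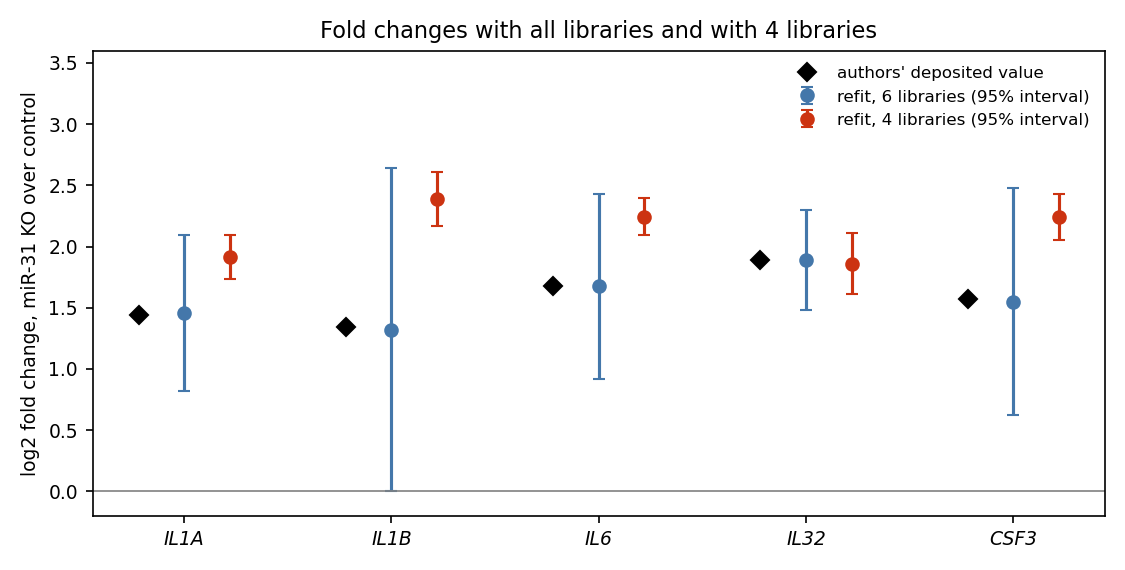
log2 fold change of miR-31 KO over control (vertical axis) for the 5 genes, as the authors' deposited value, as a limma refit of all 6 libraries and as a refit of 4 libraries, with 95% intervals. The 6-library interval of IL1B runs from 0.004 to 2.64, and IL32 has similar values in all 3. The 4 libraries were chosen after the values were seen, so their narrow intervals follow from the choice.

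Ratios of 2 of the genes within a library do not depend on how libraries were scaled. The IL1B to IL6 ratio was 4.72, 3.32 and 2.74 in control and 3.33, 3.35 and 1.85 in miR-31 KO. The IL6 to CSF3 ratio was 0.136, 0.133 and 0.157 in control and 0.147, 0.144 and 0.175 in miR-31 KO. The IL1B to IL32 ratio varied most, at 114, 36.6 and 30.6 in control and 51.1, 45.6 and 16.7 in miR-31 KO. The groups overlapped in all 10 pairs. A two-sided exact permutation test of the log2 ratio between groups gave a smallest p of 0.3, for IL1A to IL6, and adjusted p of 0.8 for all 10 pairs. With 3 against 3 libraries this test cannot go below 0.1, so no pair could have passed it, and it says nothing on whether the 5 folds were equal.

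The other genes of the cytokine pathways were read from 5 lists of ligands, receptors, signalling genes and targets, chosen with earlier results of these data known. Of 136 genes other than the 5, 20 were in the table, against 986 of the 16806 tested genes. The 20 comprised 17 higher and 3 lower genes, with a median log2 fold change of 1.81. The whole table had 593 higher and 393 lower genes and a median of 1.27, and its 593 higher genes had a median of 2.14. Values in this paragraph and the next come from the authors' deposited table unless given per library. In the interleukin-1 list 5 of 30 genes were in the table. Besides IL1A and IL1B, IL36G had 31.8, 7.02 and 5.84 normalized counts in control and 86.3, 141 and 22.1 in miR-31 KO, with overlapping groups and the same 2 libraries in between. IL18, an interleukin-1 family cytokine cut by caspase-1, fell from 1420 ± 145 to 624 ± 77.1, and PYCARD, the inflammasome adaptor gene, fell from 249 ± 21.4 to 76.7 ± 24.8. Neither overlapped between groups, and their authors' log2 fold changes were -1.19 and -1.70. No interleukin-1 receptor gene was in the table.

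In the interleukin-6 list 2 of 25 genes were in the table, IL6 itself and CTF1, a gp130 cytokine gene, which fell from 159 ± 48.5 to 56.7 ± 14.8 (log2 fold change -1.49). In the list of colony-stimulating factors CSF3 was the 1 gene of 14 in the table. Of 30 other interleukin genes, IL32, CXCL8 and IL23A were in the table, all higher. CXCL8, the interleukin-8 gene, had 17086, 9848 and 10609 normalized counts in control and 59332, 56217 and 31287 in miR-31 KO. Of 44 acute phase and NF-kappa-B target genes 15 were in the table, against 986 of the 16806 tested genes. All 15 were higher, against 60.1% of the table's genes. Their median log2 fold change was 1.95, below the 2.14 of the table's higher genes. Among them PTGES, the prostaglandin E synthase gene, had 915, 300 and 231 normalized counts in control and 6032, 5850 and 2209 in miR-31 KO, and NFKBIA, which encodes an inhibitor of NF-kappa-B, had 6142, 4292 and 4579 in control and 11025, 11063 and 8087 in miR-31 KO. The acute phase genes SAA1 and LCN2 were higher at low levels, with at most 21.8 and 34.7 normalized counts. BIRC3, an inhibitor of apoptosis gene, had 779, 2221 and 1655 in control and 5071, 4868 and 8084 in miR-31 KO, the opposite order of libraries within each group. Of the 17 higher genes 13 had control replicate 1 highest and miR-31 KO replicate 3 lowest in their groups, against 30.5% of the table's 593 higher genes. The other 4 of the 17 were IL23A, BIRC3, CCL20 and CXCL3.

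**Figure D5:**
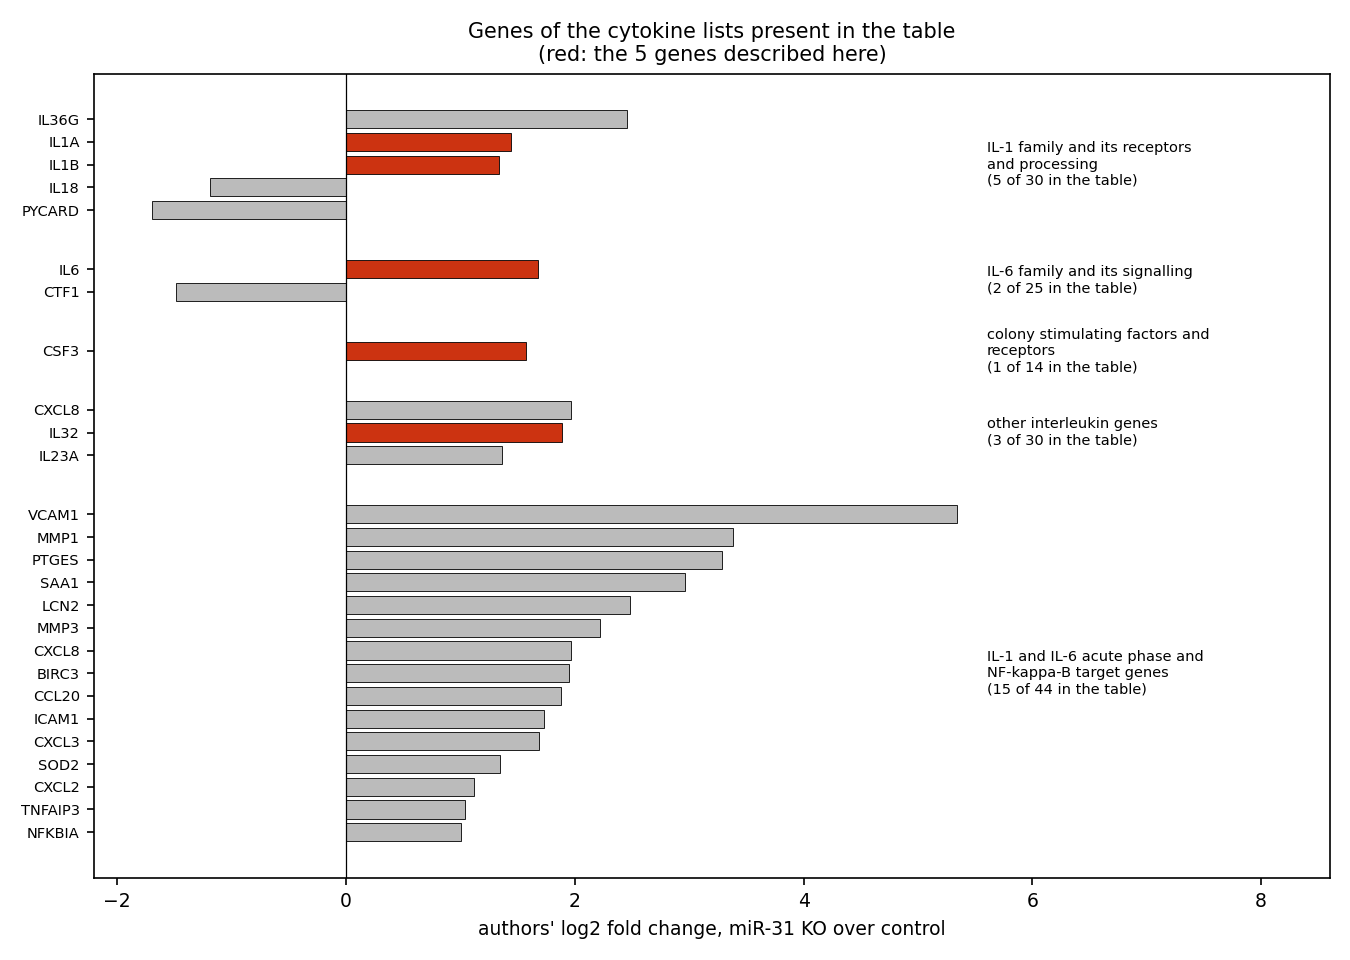
Authors' deposited log2 fold changes (horizontal axis, miR-31 KO over control) of the genes of 5 cytokine lists that are in the table, grouped by list, with the 5 genes described here in red. All but IL18, PYCARD and CTF1 are above 0.

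Markers of leukocytes, fibroblasts and endothelial cells were read as well, and those of thyroid and epithelial cells, the origin of K1 itself. Of 13 leukocyte markers 2 were in the table, ITGAM and CD3D, with CD3D listed at 0 in all 3 controls. They summed to between 5.62 and 20.03 normalized counts in control libraries and between 21.9 and 97.7 in miR-31 KO libraries. ITGAM overlapped between groups, at 20.03 in control replicate 2 and 17.9 in miR-31 KO replicate 1. Most of the highest sum was ITGAM in miR-31 KO replicate 3, at 92.6. Levels of the other leukocyte markers are unknown, so these sums cannot be weighed against IL1B, whose lowest value in any library was 8285. Of 9 fibroblast markers LUM and PDGFRA were in the table, with sums of 2.01 to 8.49 in control and 26.7 to 42.5 in miR-31 KO, and LUM was listed at 0 in the controls. Of 8 endothelial markers 3 were in the table, TIE1 and KDR higher and ERG lower, with sums of 1386 to 2232 in control and 4482 to 6158 in miR-31 KO. Of 13 thyroid markers 3 were in the table, all lower, with sums of 100.4 to 163 in control and 32.7 to 38.2 in miR-31 KO, and of 8 epithelial markers KRT7 and KRT19 were, both lower, with sums of 1104 to 1832 in control and 451 to 657 in miR-31 KO. The other markers are not among the table's genes and were not analysed here, so the labelled cell type could be checked only in part. The part of these marker differences in the cytokine values was not tested, and in bulk libraries more cells of a type cannot be told apart from more RNA per cell.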

How the data were processed

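RNA sequencing covered 3 control and 3 miR-31 KO libraries; their titles set the groups, although the series text mentions duplicates. The authors deposited 1 table of normalized read counts per gene, a signal unit that is not whole; the scaling is not given in the sources used here. The main result is the log2 fold change with its p-value and adjusted p-value as deposited by the authors. Per the submitters' processing notes the tools were HISAT, RSEM and Bowtie2 and the builds hg38 and hg19, without roles. The ratio of adjusted p to p of the first gene gives 16806 tested genes, and the last gene of the table had rank 3483, so the 986 genes were also selected by fold change. The 5 genes and all lists were chosen with earlier results of these data known.

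The table was refitted with limma 3.58.1 under R 4.3.3 (trended eBayes on log2(value + 1), Benjamini-Hochberg over 16806 genes); the refit takes its spread from selected genes and is no genome-wide test. The step was tested on simulated data. Alternatives were a pseudocount of 0.1, quantile normalization, median-of-ratios size factors, a minimum mean of 50, a block for the replicate number, and leaving out every library in turn. The closest pairs, control replicates 2 and 3 and miR-31 KO replicates 1 and 2, had a mean chi-square of 5.68 and 6.10 per gene. Other pairs within a group had at least 59.0. As the scaling and total depth are unknown, these values rank the pairs and cannot be set against sampling noise. Named genes were the 5 and any gene of the lists in the table. For each of the 5, the 3 genes with the most similar deviations could also be named, and some of these are printed. Positions and 3' UTRs come from GENCODE release 29 (GRCh38), promoters and miR-31-5p from RefSeq (GRCh38.p14), matched by symbol; promoters matched for 4 of the 5 genes. Neither annotation is known to be the authors'. Python 3.11.15, pandas 2.3.3, numpy 2.4.6, scipy 1.17.1 and matplotlib 3.10.9 were used.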

Additional observations from a re-analysis of the deposited data

How the results depend on the processing

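The authors' test called all 5 genes higher, also at an adjusted p under 0.01, and 0 of the 5 at a log2 fold change of 2 or more. The limma refit called 3, and 4 with quantile normalization. It called 1, IL32, with a pseudocount of 0.1, with median-of-ratios size factors and with a mean of at least 50. Leaving out 1 library gave 1 to 3 calls: 3 without control replicate 1 or miR-31 KO replicate 3 and 1 (IL32) without any other library. The 4 closest libraries, chosen after the values were seen, gave 5, a count that follows from that choice. Among log2 fold changes that lost their call, the refit gave 1.32 for IL1B and 1.55 for CSF3. A pseudocount of 0.1 and a mean of at least 50 gave 1.46 for IL1A, 1.32 for IL1B, 1.68 for IL6 and 1.55 for CSF3. Quantile normalization gave 0.36 for IL1B. Size factors gave 0.75 for IL1A, 0.61 for IL1B, 0.97 for IL6 and 0.84 for CSF3, and moved the median of the whole table from 1.26 to 0.56, as they were taken from selected genes. The cause of the lost calls was not tested. Leaving out 1 library gave 1.30 to 1.71 for IL1A, 1.01 to 1.90 for IL1B, 1.504 to 1.97 for IL6, 1.34 to 1.94 for CSF3 and 1.79 to 1.96 for IL32, the last called each time. No fold change turned negative in these fits. With the replicate block 4 genes were called, IL1B (1.32) not. CSF3 had a limma adjusted p of 0.0229 with the block and 0.130 without it. The SE with the block was 0.23 for CSF3 and 0.30 for IL1B, against 0.40 and 0.57 without it. Same-numbered libraries had correlations of deviations of 0.48, -0.26 and 0.48 over 521 genes. These values do not settle whether libraries were paired, and the main refit treated them as unpaired, so the missed call of CSF3 depends on that choice. Groups did not overlap for 4 to 5 genes when 1 library was left out. Leaving out 1 library gave log2 ratio differences of -0.27 to 0.022 (IL1A to CSF3), -0.24 to 0.35 (IL1A to IL1B), -0.93 to 0.02 (IL1B to IL32), -0.064 to 0.59 (IL32 to CSF3) and -0.41 to 0.16 (IL6 to IL32), so their signs depend on single libraries. The other 5 pairs kept their sign. Depth is unknown, so what it limits was not tested.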
